A study of Homo sapiens with 4 samples.

Results

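The protein-coding genes that carried exactly 1 YTHDF1-bound window were examined. To find the transcripts bound by YTHDF1, the study sequenced RNA that came down with the protein (RIP-seq) in SNU638, an established human gastric cancer cell line that overexpressed YTHDF1. All cells were kept without serum for 24 h and then given 10 ng/ml IFN-γ for another 24 h. There were 2 libraries of immunoprecipitated RNA (IP-YTHDF1) and 2 of input RNA (Input), and both groups shared the overexpression and the IFN-γ treatment, so no effect of either can be read from them. For RIP the study's methods name an antibody to FLAG or IgG, which would take up the tagged, overexpressed protein rather than the cell's own. The deposited table lists 26819 distinct windows of 50 bases that passed the authors' comparison of IP-YTHDF1 with Input, each with 1 score, 1 p-value and 1 q-value. It has no column per library and does not say whether a value rests on 1 or both replicates, so depth is unknown, no spread between the 2 replicates could be given, and the score, whose scale is not stated, is used to describe and order windows only.

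A gene was a member when it was annotated as protein-coding and had 1 row in the table once exact repeats were dropped. This held for 1934 of 6679 listed coding genes, which is 29.0%, the background share for every gene list below (Wilson 95% interval 27.9% to 30.1%). Wilson intervals here cover counting error only. Set against the 20056 coding genes of RefSeq, 1844 matched members made up 9.19%. The 1934 windows were 7.81% of the 24754 windows in coding genes, and the other 4745 genes held 22820 windows. Members were chosen by the number of windows that passed a q-value of 0.05 in the authors' table, so the score, p-value and q-value are given as a description without a test. Among markers of cell types, 5 of 7 epithelial markers had a listed window and none of 7 markers of blood, endothelial and connective-tissue cells did, beside 31.8% of all RefSeq coding genes. A listed window is not an expression level, and a gene without one may still be expressed, so the cell type was not tested. EPCAM, an epithelial adhesion molecule, was itself a member, with a score of 1.70.

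YTHDF1 is a cytoplasmic reader of N6-methyladenosine (m6A), a mark that is placed on adenosines in a short sequence context known as DRACH. The mark is known to be dense near stop codons and in long internal exons, and reader proteins can alter the translation and decay of the mRNAs that carry it. A transcript may offer a single modified stretch or many, and the number of windows that a peak list can show also depends on how many windows of that transcript could be tested at all.

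Sequence could be read for few of the members, because the reference used here holds only the stretch from 250 bases before to 50 bases after each annotated start. Of the 1934 windows, 47 lay wholly inside such a stretch of their own gene, and 46 of these began upstream of that RefSeq start. The letters searched were A, G or T, then A or G, then AC, then A, C or T (the DRACH motif), on the strand of the gene only. The motif was present in 23 of 47 windows (48.9%, Wilson interval 35.3% to 62.8%). It was present in 49.6% of the first 50 bases of all 35116 RefSeq start regions, so the share was close to the background. In the 363 windows of genes with 2 or more that lay inside a start stretch it was 37.5% (interval 32.6% to 42.6%), and in the 110 that were the strongest of their gene it was 30.9% (23% to 40.1%). At a q-value of at most 0.001 it was 35.9% in 39 of the members' windows (22.7% to 51.6%). The core GGAC, which is part of some of these motifs, was found in 15 of the 47 windows (31.9%, interval 20.4% to 46.2%). It was found in 18.9% of the first 50 bases of all start regions. The share was 21.8% and 26.4% in the same windows of genes with 2 or more, and 23.1% in those 39 windows at the stricter q-value. The mean content of G and C was 69.0% in the 47 windows and 59.2% in the first 50 bases of all start regions. Those bases begin 250 bases before the annotated start, and the windows were not matched to them by position. The same holds for the DRACH and GGAC shares set beside them. A match is a string of letters and was not tested as a site. The 11 members whose core is followed by A, C or T are shown, chromosomes 8 and Y left out, so that the stretch under the window can be read, each as 30 bases of its window in DNA letters of RefSeq GRCh38.p14 on the gene's strand, with the 5-letter motif in capitals.
TVP23C: ccgacccGGACCcgtacgctgctgcgctga
TVP23C-CDRT4: cagttccgacccGGACCcgtacgctgctgc
TVP23B: cagttccgacccGGACCcgtacgctgctgc
ARL6IP1: gaGGACTcgttggggaggtggcctgcgctt
ALG9: acggccccggctgcGGACAagctgcgggag
PRELID3B: gttgtcccctggcgctacccGGACAtctct
TMEM216: ggtctggagaggGGACAtccgagcgagggc
SF3A3: tgcgcaacgtggGGACTcaggcgcgctggg
RRP1: tgggtaccaggcgactccgGGACAgggggt
ELOVL6: aaaaagggtgatGGACAaacgtgcgggcac
SLC35B2: gcagggggcgcgcggcccggGGACTcgcat

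The first 3 of these sequences show why a single listed window is not always a window of a single gene. TVP23C and its read-through transcript TVP23C-CDRT4 lie on the minus strand of chromosome 17, and the stretches shown are chr17:15563485-15563514 and chr17:15563490-15563519. Their windows overlap in the genome and share 43 identical bases. TVP23B, a related gene of Golgi membrane proteins, lies apart on the plus strand (chr17:18781223-18781252), and its window shares 40 identical bases with that of TVP23C-CDRT4. The scores were 3.76 for TVP23C, 3.52 for TVP23C-CDRT4 and 1.95 for TVP23B. How the authors placed reads that match several copies is not given in the sources used here, so the values of these 3 genes are uncertain. ARL6IP1, which shapes the endoplasmic reticulum, had a score of 3.44 (chr16:18801490-18801519, minus strand), and its window too overlapped one of another gene on that strand, AC138811.2. The windows of the other 7 genes shown had no such partner. ALG9, a mannosyltransferase of protein glycosylation, had a score of 2.93 (chr11:111871396-111871425, minus strand). PRELID3B had 2.49 (chr20:59042746-59042775, minus strand), and TMEM216, a protein of the primary cilium's base, had 2.43 (chr11:61392463-61392492, plus strand). SF3A3, a subunit of the spliceosome, had 2.22 (chr1:37990027-37990056, minus strand). RRP1, which acts in ribosome assembly, had 2.16 (chr21:43789584-43789613, plus strand), and ELOVL6, an elongase of fatty acids, had 2.0 (chr4:110198614-110198643, minus strand). SLC35B2, which carries the sulfate donor into the Golgi, had 1.78 (chr6:44257447-44257476, minus strand).

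Single-window genes were the most numerous class of coding genes. There were 1934 of them, against 1175 genes with 2 windows, 855 with 3 and 206 with 8, and 854 genes stood at 9, the most listed for any gene. Their share fell with the number of windows tested in the gene. That number was recovered by dividing q-value by p-value, and for 99.5% of the 1913 members with an estimate the result lay within 0.5% of a whole number, the behaviour of q-values adjusted within each gene. These members had a median of 21 tested windows, and genes with 2 or more listed windows had a median of 42. Of the genes with 1 to 5 tested windows, 130 of 151 were members (86.1%, Wilson interval 79.7% to 90.7%). In genes with 21 to 30 tested windows the share was 33.4% (interval 30.7% to 36.1%), and in genes with more than 100 it was 4.23% (interval 2.62% to 6.76%). Per tested window, 3.93% were listed in the members and 9.55% in genes with 2 or more, against 8.60% in all listed coding genes. This difference is one that the rule itself brings about. No gene had more than 9 listed windows, so the 9.55% and 8.60% would be too low if the list was cut off there.

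**Figure D1:**
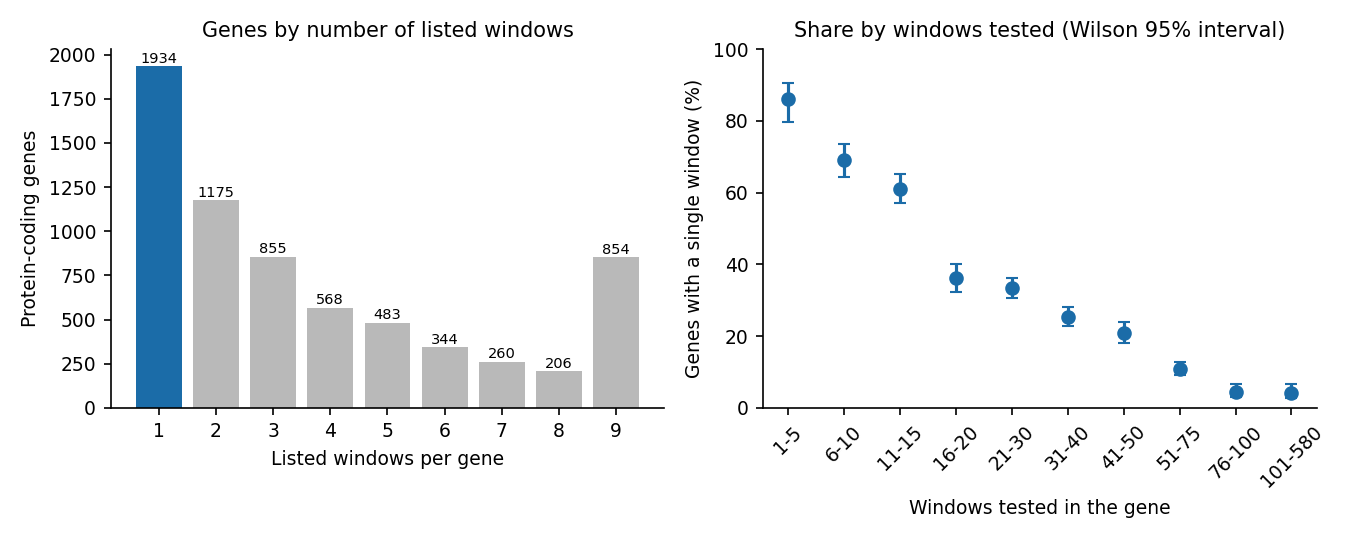
The left panel shows the number of protein-coding genes by listed windows per gene, with the 1934 single-window genes in blue. The right panel shows the share of single-window genes among listed coding genes by the number of windows tested in the gene, as points with Wilson 95% intervals, which falls from 86.1% to 4.23%.

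Scores of the single windows lay between 0.88 and 4.76. Their median was 2.07, and the 25th and 75th percentiles were 1.88 and 2.36. CCDC40, needed for the assembly of motile cilia, had the largest score, 4.76, in a window at chr17:80088683-80088732. RAMACL, a copy of the gene for an activator of cap methylation, followed with 4.75. A pair of plexins, the receptors of semaphorins, stood among the 10 largest scores, PLXND1 with 4.49 and PLXNB3 with 4.37. ZSCAN10, a zinc finger factor of embryonic stem cells, had a score of 4.48, RPL36A, a protein of the large ribosomal subunit, 4.25, and GOLT1B, which acts in Golgi transport, 4.09. CHURC1 also had 4.09, the clone-named gene AC142391.1 had 3.93 and C17orf98 had 3.90. Of these 10 windows, 4 overlapped on the same strand with a listed window of a different gene, namely RAMACL with RPS6KA2, RPL36A with RPL36A-HNRNPH2, CHURC1 with CHURC1-FNTB and AC142391.1 with ECSCR.

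The 5 smallest scores belonged to genes of unlike roles. CFL1, the actin-severing protein cofilin, and GDF15, a stress-induced cytokine, both had a score of 0.88. TAP1, which carries peptides into the endoplasmic reticulum for MHC class I, had 0.91, RPL13A had 0.95 and TMEM203 had 0.96. A low score was not the same as a weak p-value. CFL1 had a p-value of 0.000445 at a score of 0.88, and C17orf98 had 0.000244 at 3.90. The histone gene HIST1H4L, named after its values were seen, had a p-value of 1.2e-11 at a score of 1.00. Over the 1934 windows, Spearman's rho between the score and the smallness of the p-value was 0.61, a description of windows that come from the same libraries. The table holds no read counts, so how the abundance of each mRNA enters the score was not tested.

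**Figure D2:**
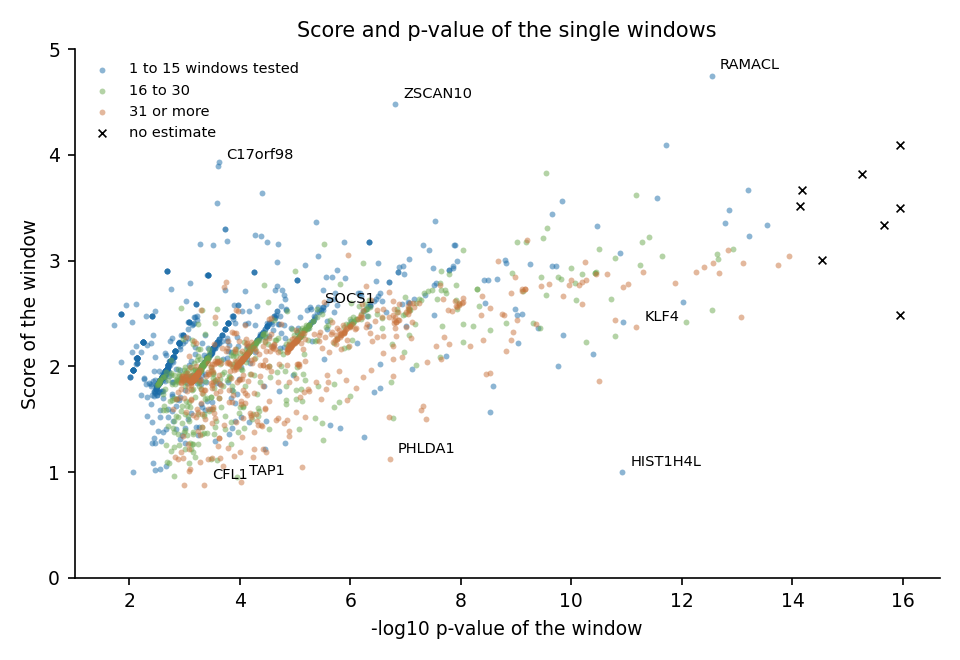
Each point is a single window, with −log10 of its p-value on the horizontal axis and its score on the vertical axis, coloured by the number of windows tested in its gene. The 13 windows whose p-value is listed as 0 are not drawn. CFL1 and TAP1 lie at the bottom left, and C17orf98 lies high at a similar p-value. Windows with the same score and p-value fall on the same spot.

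Many single windows had identical values. Of the 1934 single windows, 539 (27.9%) had the same score and p-value as at least 1 other single window, and 249 (12.9%) had a pair of values held by 5 or more. The most frequent pair, a score of 1.88 with a p-value of 0.002663, occurred in 17 genes. Among them were PRKACA, a catalytic subunit of protein kinase A, KPNA3, a nuclear import receptor, and the activin receptor ACVR2A. These 17 genes had 8 to 15 tested windows, so that the shared p-value became q-values from 0.0213 to 0.03995. For the strongest window of genes with 2 or more windows, 13.9% had a repeated pair and 2.28% had one held by 5 or more. Over all windows of these genes the shares were closer to those of the members, 18.7% and 7.38%. Whether the repeated pairs stand for windows with few reads was not tested, because no counts are given.

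Next, the single window was set beside the strongest window of genes with more, for which choosing the strongest of several raises the value by construction. The median strongest score was 2.10 in genes with 2 windows, 2.24 with 3 to 4, 2.41 with 5 to 8 and 2.48 with 9, against 2.07 for the members. The ranges overlapped widely. At 1 to 5 tested windows the members' median was 2.42 and that of the strongest windows of other genes 2.30, whereas at 51 to 75 tested windows the medians were 2.03 and 2.33. The border of the class is a border of significance. The members' q-values had a median of 0.00342, and 106 of them were above 0.04. Just outside, the less significant window of the 1175 genes with 2 windows had a median q-value of 0.0129 and a median score of 1.81. In 126 of these genes its q-value was above 0.04. A slightly stricter limit would move into the class those of them whose other window still passed, which were not counted. The 2 windows touched each other in 418 of the 1175 genes (35.6%).

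**Figure D3:**
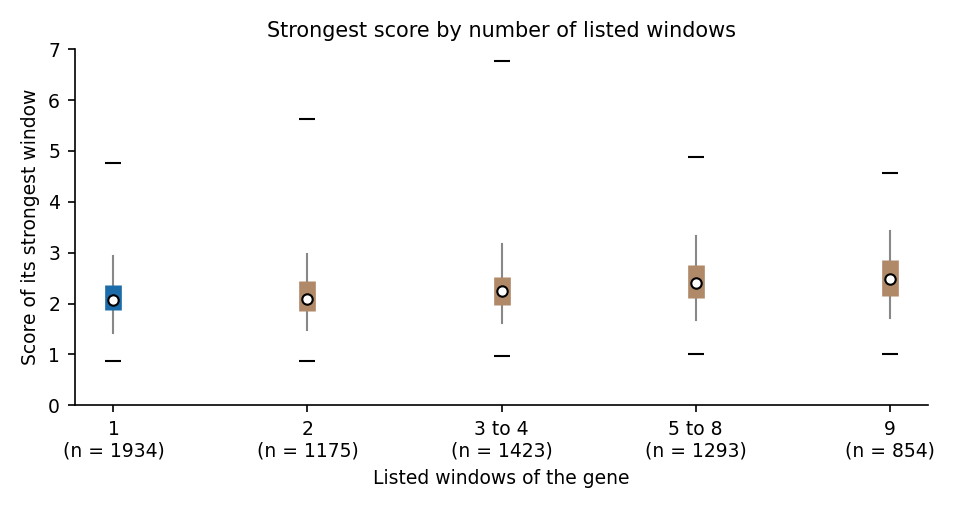
Score of the strongest window per gene by the number of listed windows, where circles are medians, thick bars run from the 25th to the 75th percentile, thin lines from the 5th to the 95th, and short dashes mark the lowest and highest value. The median rises from 2.07 to 2.48 while the ranges overlap.

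The 5 members with the largest q-values show the inner side of that border. ZNF689 had a q-value of 0.04986 at a score of 2.10 in 60 tested windows, and CCL5, a chemokine that attracts T cells, had 0.04958 at a score of 2.03 in only 7. COX19, an assembly factor of cytochrome c oxidase, had 0.0497, FAM111A, a nuclear protease, had 0.04969 and AC112504.2 had 0.04998. A stricter q-value of 0.001 kept 729 of the 1934 members (37.7%) and 3735 of the 4745 other genes (78.7%). The rule itself favours such a gap, because it used the q-value and a gene with several windows has more chances to keep 1. These shares are therefore no measure of how strongly the members were bound. At that limit 1857 genes had exactly 1 window, and 1128 of them had 2 or more windows in the full list. The class therefore kept its size at this limit while most of its genes were exchanged.

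The place of the single window along the gene was not used by the rule. It could be measured for 1780 members (92.0%), whose window lay inside the RefSeq interval of the gene with the same symbol. Of these windows, 652 (36.6%) lay in the first 10% of the gene's length and 204 (11.5%) in the last 10%, with introns counted in the length. For all windows of genes with 2 or more, these shares were 33.6% and 11.1%. The start of the gene was within 300 bases for 441 single windows (24.8%, Wilson interval 22.8% to 26.8%), and 138 single windows began within the first 50 bases. Where the tested windows lay is not known, so a crowding near the start cannot be told apart from more windows having been tested there. Both strands were alike, with 25% near the start on the plus strand and 24.5% on the minus strand.

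Pooled over all genes, the share near the start was 24.8% for single windows and 25.2% for the strongest window of genes with 2 or more. For all windows of genes with 2 or more it was 18.2% (Wilson interval 17.7% to 18.8%), below that of single windows. Among genes with similar numbers of tested windows, single windows did not lie above either set (below). There the shares of single and strongest windows differed. Strongest windows were chosen by score, and position went with score among the members (below). How far that choice enters the differences was not tested. With 1 to 15 tested windows, 37.0% of single windows and 46.4% of strongest windows lay within 300 bases of the start, a difference of -9.36 percentage points (95% interval -15.8 to -2.91). The difference was -9.70 points at 16 to 30 tested windows (interval -14 to -5.19) and -7.07 points at 31 or more (interval -10.1 to -3.59). Near the other end, single windows within 1000 bases of the gene end made up 11.2% at 16 to 30 tested windows and strongest windows 6.76%, a difference of 4.4 points (interval 1.49 to 7.61). At 31 or more tested windows it was 3.47 points (interval 1.52 to 5.97), and at 1 to 15 the interval ran from -2.33 to 4.79. Set beside all windows of genes with 2 or more instead of the strongest, single windows were at 37.0% (Wilson interval 33.5% to 40.7%) against 45.1% (41.8% to 48.5%) at 1 to 15 tested windows. At 16 to 30 they were at 20.8% (17.6% to 24.4%) against 28.1% (26.7% to 29.7%). At 31 or more the shares were close, 13.9% (11.3% to 17.1%) against 14.8% (14.3% to 15.4%). Several windows of 1 gene are not independent, so these intervals are too narrow for the genes with more than 1.

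Position also went with the score among the members. Single windows with a score of at least 2 lay within 1000 bases of the gene end in 5.17% of 1025 cases (Wilson interval 3.97% to 6.70%), and those with a score below 2 in 14% of 755 cases (interval 11.7% to 16.7%). Within 300 bases of the start the shares were 27.4% (interval 24.8% to 30.2%) and 21.2% (interval 18.4% to 24.2%). RGS2, a regulator of G protein signalling, and ECHS1, an enzyme of fatty acid oxidation, are strong windows at the start, chosen as examples after their values were seen. The RGS2 window began 51 bases from the start with a score of 3.67, and the ECHS1 window 19 bases from it with a score of 3.50.

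**Figure D4:**
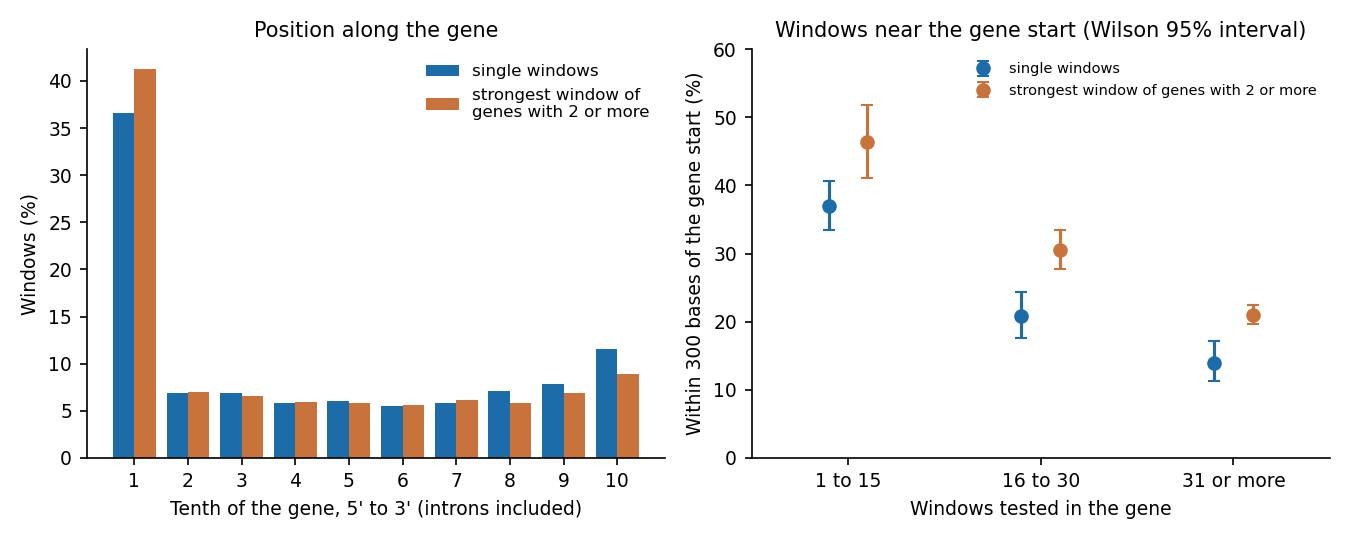
The left panel shows the share of windows in successive bins of 10% of the gene's length, from 5′ to 3′ with introns included, for single windows and for the strongest window of genes with 2 or more. The right panel shows the share within 300 bases of the gene start by windows tested, with Wilson 95% intervals, where single windows lie at 37.0%, 20.8% and 13.9% and strongest windows at 46.4%, 30.5% and 21.0%.

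The members were then sorted by gene lists, each read against the background of 29.0% single-window genes. Short mRNAs of the ribosome and the respiratory chain held the highest shares. Of 42 cytosolic ribosomal protein genes with a listed window, 23 had a single one (54.8%, Wilson interval 39.9% to 68.8%). The share was 17 of 32 for mitochondrial ribosomal proteins (53.1%, interval 36.4% to 69.1%) and 18 of 35 for the respiratory chain (51.4%, interval 35.6% to 67.0%). The genes of these lists had medians of 13.5, 15 and 15 tested windows, against 35.1 for all listed coding genes. Restricted to genes with at most 15 tested windows, the shares were 17 of 25 (68.0%), 11 of 17 (64.7%) and 12 of 18 (66.7%), next to 741 of 1100 for all listed coding genes (67.4%). In this range the 3 lists were close to that background. TMEM genes stood at 17 of 21 (81.0%) there, and proteasome genes and histones at 5 of 14 (35.7%) and 4 of 11 (36.4%).

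**Figure D5:**
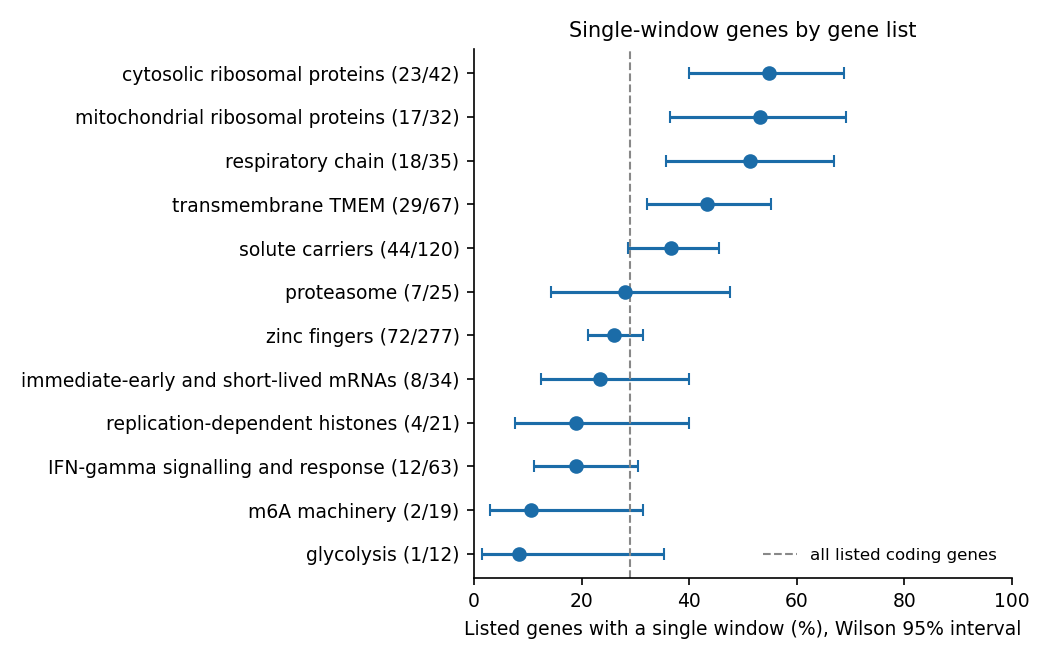
Share of single-window genes among the listed genes of each gene list with at least 10 listed genes, as points with Wilson 95% intervals, and the dashed line at 29.0% for all listed coding genes. The ribosomal and respiratory lists lie at 51.4% to 54.8%, and the m6A and glycolysis lists at 10.5% and 8.33%.

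Within the ribosomal protein genes the single windows were spread over a wide range of scores. RPL36A had 4.25, RPL21 had 3.19 and RPL14 had 3.15, whereas RPL13A had 0.95. Of the 23 windows, 5 lay in the first 10% of the gene's length and 4 in the last 10%, beside 36.6% and 11.5% of all members. Processed copies of ribosomal protein genes are numerous in the genome, so these values are uncertain as far as reads were shared. Mitochondrial ribosomal proteins were led by MRPL23 with 2.48, MRPL35 with 2.41 and MRPL33 with 2.23, and their lowest score was 1.02. In the respiratory chain the largest scores belonged to complex I, with 2.73 in its assembly factor NDUFAF6, 2.58 in NDUFA13 and 2.54 in NDUFS1, and the lowest score was 1.47. The NDUFA13 window overlapped one of AC011448.1 on the same strand.

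Of 63 IFN-γ genes with a listed window, 12 had a single one (19.0%, Wilson interval 11.2% to 30.4%, against 29.0%), and the list's median was 43.1 tested windows. Several of the 12 belong to antigen processing. TAPBP, which bridges MHC class I and the peptide transporter, had a score of 1.57 with a q-value of 0.000567 in 60 tested windows, and its partner TAP1 had 0.91 with a q-value of 0.004995 in 53. PSME1 and PSME2, which form the proteasome activator PA28 and are neighbours on chromosome 14, had nearly the same score, 2.10 and 2.08. Their q-values were far apart, 1.64e-07 and 0.0357. CD74, the invariant chain of MHC class II, had a score of 1.26 close to the q-value limit (0.0372).

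The other members of this list act in antiviral defence or in feedback. SOCS1, the inhibitor of JAK kinases that ends IFN-γ signalling, had a score of 2.54 and a q-value of 0.000103. Its window, chr16:11256106-11256155 on the minus strand, began 49 bases from the start of the gene. SAMD9L, an antiviral protein, had 2.62 in a window 29 bases from the start, and SP100, a nuclear body protein, had 2.36 in a window 42 bases from it. These were the 3 largest scores of the 12. SAMD9, the neighbour and relative of SAMD9L, had 2.02 in a window 13566 bases downstream of its start. ISG15, a ubiquitin-like modifier, had 1.19, UBE2L6, its conjugating enzyme, had 2.23, and BST2, which tethers budding virus, had 1.45. The median score of the 12 was 2.05, beside 2.07 for all members.

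The m6A machinery had 2 members among 19 listed genes (10.5%, Wilson interval 2.94% to 31.4%). YTHDC1, the nuclear reader of m6A, had a score of 2.5 and a q-value of 1.19e-05 in a window 253 bases from the start. METTL16, a methyltransferase of U6 snRNA, had 1.93 and a q-value of 0.0209 in a window 4598 bases from the end of the gene. Immediate-early and short-lived mRNAs had 8 members of 34 listed genes (23.5%). KLF4, a transcription factor of epithelial differentiation, had the smallest q-value of them, 2.2e-10, at a score of 2.37. The phosphatases of MAP kinases DUSP5 and DUSP1 had 2.39 and 2.33. FOSB had 1.92, NR4A2 1.86, GADD45A 1.66, CCN1 1.14 and IER3 1.12, and CCN1 was close to the q-value limit at 0.0494. LDHB, a lactate dehydrogenase subunit, was the only member of 12 listed glycolysis genes, with a score of 2.02. Its window overlapped one of AC010197.2 on the same strand.

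The proteasome list had 7 members of 25 listed genes (28.0%, Wilson interval 14.3% to 47.6%). Besides PSME1 and PSME2 these were the core subunits PSMB7, with a score of 2.01, PSMB4, with 1.83, and PSMA7, with 1.41, the cap subunit PSMD8, with 1.53, and FAM192A, now named as a partner of the PA28γ activator, with 2.39. Zinc finger genes had 72 members of 277 (26.0%, interval 21.2% to 31.5%). Their scores were led by ZSCAN10 with 4.48, ZNF660 with 3.83 and ZNF816 with 3.22, and the latter 2 shared their window with another gene. Genes with a symbol that starts with SLC had 44 of 120 (36.7%, interval 28.6% to 45.6%). The largest score there, 2.88, was that of SLC7A6OS, which is named for its neighbour and is no solute carrier, followed by SLC9C1 with 2.79 and SLC29A3 with 2.77. TMEM genes had 29 of 67 (43.3%, interval 32.1% to 55.2%), from 3.02 in TMEM60 to 0.96 in TMEM203. Replication-dependent histones had 4 of 21, of which HIST1H2BJ had the largest score, 2.72. Collagens and laminins had 2 of 5, COL13A1 with 2.13 and COL6A1 with 1.85.

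A few long and widely tested transcripts also had no more than 1 listed window. FAT1, an atypical cadherin, had about 259 tested windows and 1 listed, with a score of 2.49 and a q-value of 1.13e-06, 2902 bases from the start. FASN, the fatty acid synthase, had 174 tested windows and a score of 2.25 with a q-value of 2.14e-07. NOTCH1 had 140 tested windows and a window with a score of 1.66 and a q-value of 0.022. TNRC6B, a scaffold of microRNA silencing, had 133 and a score of 2.35, BSN had 137 and 2.45, and ABCC1, a drug exporter, had 118 and 1.13. CCDC57 had 207 and 1.96, and PHLDA1 had 116 and 1.12. PCDHGA4, with 241 tested windows, belongs to a cluster of overlapping protocadherin genes, and its window coincided with windows listed for 5 of its neighbours. At the short end, FYB2 and IPCEF1 each had 1 tested window, with scores of 3.55 and 3.24, and P3H2, a collagen prolyl hydroxylase, had 2 and a score of 3.64. The IPCEF1 window overlapped a listed window of AL357075.5 on the same strand, and the P3H2 window one of MTAPP2. Which gene the bound RNA came from was not tested for either.

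Sharing between genes touched a minor part of the class. In 210 members (10.9%) the window overlapped, on its own strand, one listed for a different gene, next to 629 of the other coding genes (13.3%). The partner was protein-coding for 181, a lncRNA for 28 and a pseudogene for 7 members. For 102 members the partner was itself a single-window coding gene, as with ZNF660 and ZKSCAN7, so that the same stretch of RNA entered the class under 2 names. Among the 100 largest scores, 29 members had such a partner. The median score was 2.10 with a partner and 2.07 without. Only 19 members overlapped a window on the opposite strand.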

How the data were processed

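The libraries were made with a strand-specific, ribosomal RNA-depleted kit. Per the submitters' processing notes, STAR 2.7.3a and GRCh38 were used, and the peak caller is not given in the sources used here. The authors deposited 1 table, in which each window has a score of unstated scale, a rank, a p-value and a q-value. It has 0 columns of values per library, so the planned test of IP-YTHDF1 against Input was not run. Of 26820 rows, 1 exact repeat was dropped. Starts are given from 1. Windows tested per gene were computed as the q-value times the window's order by p-value within its gene, over the p-value, where the p-value exceeded 1e-14 (21 members gave no estimate), a step tested on simulated data. RefSeq GRCh38.p14 symbols matched 1844 members (95.3%). Windows sharing at least 1 base counted as overlapping. Intervals are Wilson 95%, and those of differences follow Newcombe's method. Named genes are the 10 largest and 5 smallest scores, the 5 largest q-values, the 10 most and 5 fewest tested windows, all members of the IFN-γ, m6A, immediate-early, glycolysis and proteasome lists and up to 3 of larger lists, with 1 item not reported here. Members and lists were chosen with earlier results of these data known. Genes and windows of 1 table are not replicates. Python 3.11.15, pandas 2.3.3, NumPy 2.4.6 and SciPy 1.17.1 were used.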

Additional observations from a re-analysis of the deposited data

How the results depend on the processing

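No paired analysis was possible because IP-YTHDF1 and Input replicates have no columns of their own, and for the same reason no replicate could be left out. Spliced positions were not run, because exons were not used here. The number of single-window genes stayed within 1.5 times of 1934 under each alternative tried, from 1857 to 2557, but their share moved from 29.0% to 41.6% at a q-value of at most 0.001, 54.8% at a score of at least 2, 38.3% with touching windows joined and 30.4% without windows shared on the same strand. The median score moved from 2.07 to 2.34 in genes with exactly 1 window at the q-value of 0.001. It moved to 2.03 in genes with exactly 1 window once shared windows were left out. Both classes hold genes that were not members, and the members without a same-strand partner kept a median of 2.07. The share in the last 10% of the gene's length moved from 11.5% to 9.60% in genes with exactly 1 window at the q-value of 0.001. Among the members that passed that limit it was 8.87% of 665 placed windows. The motif share moved from 48.9% to 66.7% with 50 bases added on both sides, which 18 windows allowed, and to 6.38% for GGACT alone. The following were chosen after the data were seen. The share near the start stayed between 24.8% and 25.8%, the latter in genes with exactly 1 window at the q-value of 0.001. Among the members that passed that limit it was 27.8% (Wilson interval 24.5% to 31.3%). Of the 1934 members, 729 were left at the q-value of 0.001, 1117 at a score of at least 2, 1863 (96.3%) after adjustment over the 310017 windows tested in all listed genes, a lower bound, and 253 (13.1%, against 50.5% of the other coding genes) under a Bonferroni limit over them. Genes with more windows have more chances to keep 1, so the rule itself favours this last gap. Without depth per library, genes with 1 window cannot be split into those bound once and those in which further windows had too few reads.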

Other observations

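Single-window genes lay on all main chromosomes. Among chromosomes with over 50 listed coding genes, chromosome 12 had the lowest share, 82 of 372 genes (22%, Wilson interval 18.1% to 26.5%). Chromosome 13 had the highest, 34 of 90 (37.8%, interval 28.5% to 48.1%), and chromosome 19, rich in zinc finger genes, had 160 of 530 (30.2%, interval 26.4% to 34.2%). These are values from the extremes of a ranking, given with no test. The plus strand held 937 members and the minus strand 997.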
